A study of Homo sapiens with 3 samples.

Results

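Cohesin and condensin I are ring-shaped protein complexes that shape chromosomes, and the transcript signals of their 10 core subunit genes were measured in C33A cells. The genes were chosen by name, as those whose symbol is SMC1A, SMC3, RAD21, STAG1 or STAG2 (cohesin) or SMC2, SMC4, NCAPD2, NCAPG or NCAPH (condensin I), and all 10 were found among 18417 measured genes. C33A is a human cervical carcinoma line. Total RNA came from 3 independent cultures, all growing exponentially and untreated, with 1 Affymetrix Human Gene ST array for each culture. The arrays thus hold 1 condition of 1 line and no contrast between conditions, and the spread given below is that between cultures. Values are log2 intensities. With 3 arrays, the precision of each mean is limited by their number.

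Cohesin holds sister chromatids together after replication until anaphase and also extrudes chromatin loops in interphase. SMC1A and SMC3 are long coiled-coil ATPases joined at a hinge, the kleisin RAD21 closes the ring between their heads, and either STAG1 or STAG2 binds RAD21. Condensin compacts chromosomes in mitosis. Its ATPases SMC2 and SMC4 are shared by condensin I and condensin II, whereas the kleisin NCAPH and the HEAT repeat subunits NCAPD2 and NCAPG belong to condensin I alone.

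E2F factors and the MuvB complexes time the transcription of cell cycle genes, and the study followed the chromatin remodeller CHD8 at E2F-dependent genes, so the promoters are shown with the motifs of both. RefSeq promoter windows (GRCh38.p14, 250 bases before to 50 bases after a transcription start) were found for 9 of the 10 genes (all but RAD21), 14 windows in all. They were searched on both strands for the E2F letters TTTGGCGC, TTTCCCGC, TTTGCCGC and TTTCGCGC and for TTTGAA, the cell cycle genes homology region (CHR) that the MuvB complexes bind in promoters of mitotic genes. No E2F match overlapped a CHR match in these windows. Capitals mark the matches in the sequences that follow, where CHR matches on the opposite strand read TTCAAA. In full, the 250 bases upstream of the start are given for the condensin gene of highest signal, NCAPD2, for NCAPG, whose CHR letters lie 35 bases before its start, and for STAG1, the cohesin gene of lowest signal.
NCAPD2, chr12:6493852-6494101 (plus strand): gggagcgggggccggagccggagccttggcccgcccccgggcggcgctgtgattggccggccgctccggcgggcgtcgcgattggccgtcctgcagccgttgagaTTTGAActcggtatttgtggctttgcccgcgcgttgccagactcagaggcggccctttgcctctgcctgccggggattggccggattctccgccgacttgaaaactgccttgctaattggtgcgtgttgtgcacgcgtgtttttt
NCAPG, chr4:17810729-17810978 (plus strand): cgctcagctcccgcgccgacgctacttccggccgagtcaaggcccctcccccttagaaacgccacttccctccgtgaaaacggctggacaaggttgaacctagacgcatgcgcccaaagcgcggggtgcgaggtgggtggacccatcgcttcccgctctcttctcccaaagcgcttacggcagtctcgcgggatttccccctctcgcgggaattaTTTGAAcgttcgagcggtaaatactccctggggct
STAG1, chr3:136752379-136752628 (minus strand): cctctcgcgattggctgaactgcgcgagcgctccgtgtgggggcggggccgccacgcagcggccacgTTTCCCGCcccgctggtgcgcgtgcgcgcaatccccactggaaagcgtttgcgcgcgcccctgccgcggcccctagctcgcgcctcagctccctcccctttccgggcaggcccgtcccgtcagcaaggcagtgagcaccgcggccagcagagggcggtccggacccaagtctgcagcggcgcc

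In the other windows with a match, 30 bases around it are given, to show the letters in their context.
SMC2, chr9:104094282-104094311 (plus strand): tggggtcctttgctcgcgccgaaaTTCAAA
SMC4, chr3:160399563-160399592 (plus strand): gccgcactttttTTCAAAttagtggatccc
SMC3, chr10:110567532-110567561 (plus strand): cagaattctagaTTCAAAagaaatccacca
SMC1A, chrX:53422656-53422685 (minus strand): gcactgcggcgTTTCCCGCgcgggctacct
STAG2, chrX:123961996-123962025 (plus strand): tgttggggggtTTTGGCGCcacttttgttt

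CHR letters were found for 5 genes, NCAPD2, NCAPG, SMC2, SMC4 and SMC3, of which 4 encode condensin subunits. Among all genes with a RefSeq window, 18.2% had such a match in at least 1 window, and of all 35116 windows 15.2% did. The match began 35 bases before the start in NCAPG, 75 in SMC4, 145 in NCAPD2 and 151 in SMC3, while in SMC2 it began 3 bases before the start and ran across it. E2F letters were found for 3 genes, all of cohesin: STAG1 (183 bases before the start), SMC1A (20 bases before the more downstream of its 2 starts) and STAG2 (51 bases before the most downstream of its 3 starts). These letters were in a window of 3.99% of all genes and in 3.31% of all windows. No gene of the 10 had matches of both kinds, and the NCAPH window had neither. A match describes letters only, and E2F or MuvB binding was not measured on these arrays.

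**Figure D1:**
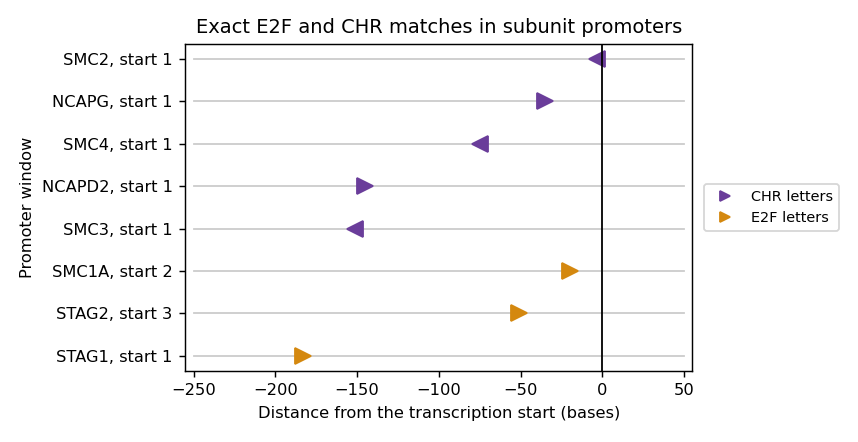
Position of exact E2F and CHR matches in the promoter windows of cohesin and condensin I subunit genes, where the x axis gives the distance from the transcription start in bases, each row is 1 RefSeq window (starts numbered from the most upstream) and an arrowhead to the right marks a match on the gene's own strand. The 5 CHR matches lie between 3 and 151 bases before the start and the 3 E2F matches between 20 and 183.

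All 10 subunit genes had a transcript signal well above the 95th percentile of gene families silent in most tissues. Of the 10, 6 were among the tenth of genes with the highest signal. The silent families were 477 genes of olfactory and bitter taste receptors, beta-defensins and proteins associated with hair keratin, whose 95th percentile, 6.38 log2, served as a bound because no detection call comes with the values. STAG1, the lowest subunit gene, was 2.49 log2 above this bound and NCAPD2, the highest, 4.57 above it. The highest single gene of the silent families was at 8.84 log2, close below STAG1 at 8.87. Of all genes measured, 56.9% were above the bound. Ranked by mean signal into 10 deciles, RAD21, SMC3, SMC1A, NCAPD2, NCAPG and SMC4 were in decile 10, which holds 10% of all genes by definition, SMC2, NCAPH and STAG2 were in decile 9 and STAG1 was in decile 8. Each gene was in the same decile on every one of the 3 arrays. The median of the 10 genes was 10.41 log2, against 6.91 for all genes. A probe set's signal also depends on the sequence of its probes, so an order of genes by signal is only roughly an order by transcript amount, and in a culture of mixed cell cycle stages fewer expressing cells and less RNA per cell cannot be told apart.

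Among the cohesin genes, RAD21 had the highest signal. RAD21, the kleisin that separase cuts at anaphase, read 10.91, 10.93 and 10.93 log2 in cultures 1, 2 and 3 (mean 10.92 ± 0.0066, SD, n = 3), at percentile 97.2 of all genes. The cultures were thus all but alike for this gene. SMC3, the ATPase subunit whose head is acetylated when cohesion is established, read 10.56, 10.56 and 10.55 (10.56 ± 0.0036, SD, n = 3). SMC1A, its ATPase partner encoded on the X chromosome, read 10.26, 10.28 and 10.21 (10.25 ± 0.04, SD, n = 3). The SMC3 signal was above that of SMC1A in each culture, by 0.29, 0.28 and 0.34 log2.

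The alternative STAG subunits had the lowest signals of cohesin. STAG2, the X-linked paralogue that most somatic cohesin carries and a gene often mutated in cancers, read 9.44, 9.52 and 9.40 log2 in cultures 1, 2 and 3 (9.45 ± 0.06, SD, n = 3, percentile 85.7). STAG1, its autosomal paralogue, read 8.97, 8.86 and 8.78 (8.87 ± 0.10, SD, n = 3, percentile 78.0). STAG2 was above STAG1 in all 3 cultures, by 0.47, 0.65 and 0.63 log2 (0.58 ± 0.10, SD, n = 3). With 1 probe set a gene, this SD between cultures does not cover the effect of probe sequence. Between RAD21 and STAG1, the ends of the cohesin range, lay 2.05 log2.

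Condensin I covered a narrower range, 1.40 log2, from NCAPD2 down to NCAPH. NCAPD2, a HEAT repeat subunit, had the highest signal of the 10 genes, with 10.96, 10.97 and 10.94 log2 in cultures 1, 2 and 3 (10.96 ± 0.02, SD, n = 3, percentile 97.4). NCAPG, the other HEAT repeat subunit, read 10.85, 10.86 and 10.79 (10.84 ± 0.04, SD, n = 3), so that the HEAT repeat genes differed by 0.11, 0.11 and 0.15 log2 in the 3 cultures. NCAPH, the kleisin that joins them to the ATPase heads, was the lowest of condensin I and read 9.49, 9.62 and 9.56 (9.56 ± 0.06, SD, n = 3, percentile 86.9). The ATPase genes lay on either side of the lower edge of decile 10, at 9.83 log2. SMC4 read 10.66, 10.70 and 10.74 (10.70 ± 0.04, SD, n = 3) and SMC2 read 9.59, 9.59 and 9.61 (9.60 ± 0.01, SD, n = 3). SMC4 exceeded its partner SMC2 by 1.07, 1.10 and 1.13 log2 (1.10 ± 0.03, SD, n = 3), an SD that likewise does not cover probe sequence. The signal of RAD21 was 1.37 ± 0.06 log2 (SD, n = 3) above that of the condensin kleisin NCAPH.

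**Figure D2:**
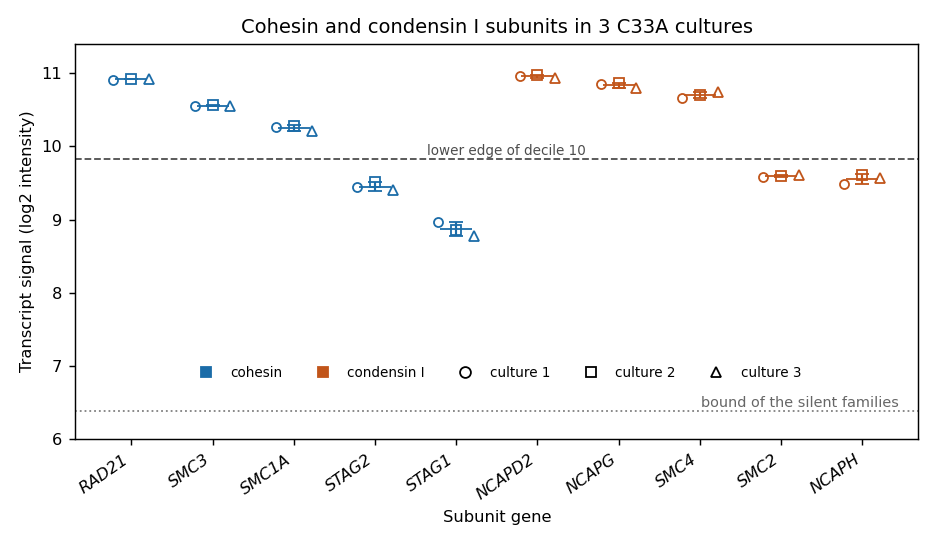
Transcript signal of each cohesin and condensin I subunit gene (y axis, log2 intensity, starting at 6) in the 3 C33A cultures, with symbols for the cultures, horizontal strokes for the mean, error bars for the SD (n = 3), a dashed line at the lower edge of decile 10 (9.83) and a dotted line at the bound of the silent families (6.38). SMC2, NCAPH, STAG2 and STAG1 lie below the dashed line in all cultures, and the other 6 genes lie above it.

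Ordered by mean signal, the genes ran NCAPD2, RAD21, NCAPG, SMC4, SMC3, SMC1A, SMC2, NCAPH, STAG2 and STAG1. Of the 9 neighbouring pairs in this order, 8 kept their order on all 3 arrays. The exception was SMC2 and NCAPH, whose difference of 0.04 ± 0.06 log2 (SD, n = 3) was below its spread, with NCAPH the higher in culture 2. NCAPD2 and RAD21 differed by 0.04 ± 0.02 log2 (SD, n = 3). The widest gap between neighbours, 0.66 ± 0.05 log2 (SD, n = 3), separated SMC1A from SMC2. An exact sign permutation test over 3 arrays cannot go below p = 0.25 (two-sided), so no pair was tested. The effect of probe sequence, which is shared by all arrays, on this order was not tested either.

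By role, the 4 ATPase genes had a median of 10.41 log2, the 4 STAG and HEAT repeat genes 10.14 and the kleisins, RAD21 and NCAPH, 10.24. By complex, the median was 10.70 for condensin I and 10.25 for cohesin. Each class and each complex held genes of decile 10 and of decile 9, so the ranges overlapped.

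The cultures differed little in these genes. The range over the 3 cultures was under 0.1 log2 for 7 of the 10, from 0.0071 for SMC3 up to 0.07 for NCAPG and 0.08 for SMC4, and it was 0.11 for STAG2, 0.13 for NCAPH and 0.19 for STAG1. The SD was below the median SD of the gene's own decile for 7 of the 10 genes, against 50% of all genes by construction. These 7 were SMC1A, SMC3, RAD21, SMC2, SMC4, NCAPD2 and NCAPG. In decile 10, where the median SD was 0.04 log2, only 0.71% of the genes had a smaller SD than SMC3 and 1.95% a smaller one than RAD21. In decile 9, 3.91% had a smaller SD than SMC2, while for NCAPH and STAG2 it was 63.8% and 57.4%. STAG1 had the largest SD of the 10, above that of 80.1% of the genes in decile 8. Of the 10 genes, 6 had their highest value in culture 2, 3 in culture 3 and only STAG1 in culture 1. STAG1 was 0.10 log2 above its mean in culture 1 and 0.09 below it in culture 3, whereas NCAPH was 0.07 below its mean in culture 1 and 0.06 above it in culture 2. An SD from 3 cultures is itself imprecise.

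**Figure D3:**
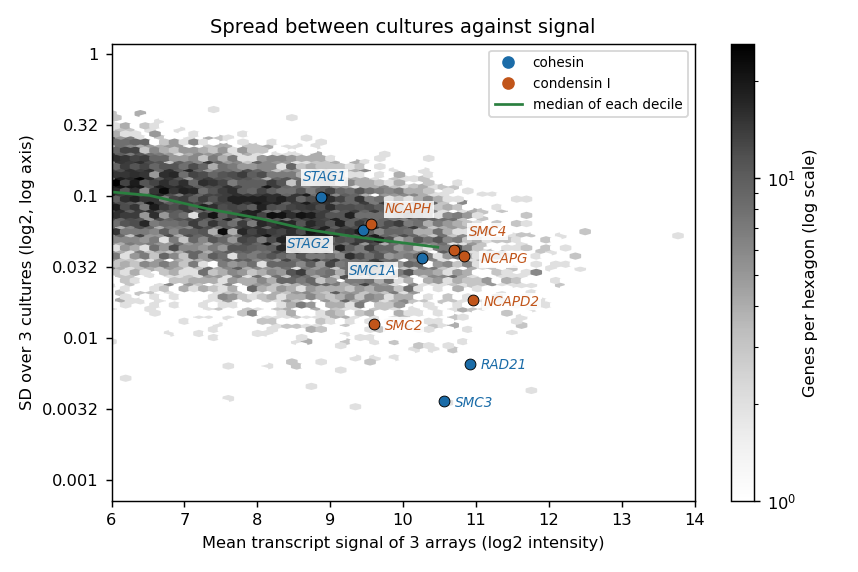
SD over the 3 cultures (y axis, log2, logarithmic) against mean transcript signal (x axis, log2 intensity, starting at 6) for cohesin genes (blue) and condensin I genes (orange), over all measured genes (grey hexagons, darker with more genes), with a green line through the median SD of each decile. SMC3, RAD21 and SMC2 lie well below this line, and STAG1, NCAPH and STAG2 lie above it.

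Of the 4 germline counterparts of cohesin, which replace the somatic subunits in meiosis, 3 were below the bound and REC8 just above it. SMC1B, the counterpart of SMC1A, was at 3.72 ± 0.05 log2 (SD, n = 3) and RAD21L1, a counterpart of RAD21, at 3.53 ± 0.10 (SD, n = 3), both below the bound and in decile 1. The other meiotic kleisin, REC8, read 6.44, 6.38 and 6.37 log2 (6.40 ± 0.04, SD, n = 3), and STAG3, the meiotic STAG protein, 6.05, 5.87 and 5.96 (5.96 ± 0.09, SD, n = 3). They were in deciles 5 and 4, near the middle of all genes, with REC8 0.01 log2 above the bound and STAG3 below it. With the protein-coding members of the silent families alone, a setting chosen after seeing the data, the bound is 6.41 and the REC8 mean falls below it. With olfactory receptor genes alone, the bound is 5.44. The means of REC8 and STAG3 are then both above it, and only SMC1B and RAD21L1 stay below. The somatic subunits SMC1A, RAD21 and STAG1 were 3.87, 4.54 and 2.49 log2 above the bound. No size is given for their difference from probe sets that are not clearly above it. Whether a signal near 6 log2 reflects any transcript of REC8 or STAG3 was not tested.

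Condensin II has its own kleisin and HEAT repeat subunits, and 2 of these 3 genes had a lower signal than their condensin I counterpart. NCAPD2 exceeded NCAPD3 (9.48 ± 0.05, SD, n = 3) by 1.51, 1.52 and 1.40 log2 in cultures 1, 2 and 3. NCAPH exceeded NCAPH2 (8.25 ± 0.03, SD, n = 3) by 1.22, 1.36 and 1.35. NCAPG and NCAPG2, in contrast, could not be separated, with 10.84 ± 0.04 and 10.83 ± 0.02 log2 (SD, n = 3 each) and a difference of 0.01, 0.02 and -0.02 log2 in the 3 cultures.

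The genes that load, regulate and cleave cohesin were all above the bound, against 56.9% of all genes. Their median was 9.08 log2 for loading, release and accessory factors, 8.68 for acetylation and deacetylation and 9.11 for cleavage and protection, below the 10.25 of the cohesin subunits. NIPBL, the loader, was at 8.99 ± 0.07 log2 and its partner MAU2 at 7.95 ± 0.08 (SD, n = 3 each). WAPL, which opens the ring and releases cohesin, was at 10.01 ± 0.01 (SD, n = 3) and the only gene of decile 10 among the 6 of loading, release and accessory function. PDS5A, an accessory subunit, was at 9.81 ± 0.04 and its paralogue PDS5B at 8.43 ± 0.12 (SD, n = 3 each). The mean of PDS5A lay just below the lower edge of decile 10 (9.83 log2), and its culture 1 value, 9.85, lay above that edge. CDCA5, or sororin, which protects cohesin from WAPL, was at 9.18 ± 0.06 (SD, n = 3). The acetyltransferases of SMC3, ESCO1 and ESCO2, were at 8.46 ± 0.08 and 8.68 ± 0.05, and the SMC3 deacetylase HDAC8 was at 8.97 ± 0.07 (SD, n = 3 each), all in decile 8. Separase (ESPL1) was at 9.11 ± 0.10, below its inhibitor securin (PTTG1) at 9.98 ± 0.10 (SD, n = 3 each). The shugoshins SGO1 and SGO2, which guard centromeric cohesin, were at 8.28 ± 0.10 and 7.78 ± 0.10 (SD, n = 3 each). The mitotic kinase PLK1 was at 11.46 ± 0.04 (SD, n = 3), above all 10 subunit genes.

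The third SMC complex, SMC5/6, which acts in DNA repair, had 7 measured genes. All were above the bound, against 56.9% of all genes, and none was in decile 10. SMC5 was at 8.27 ± 0.02 and SMC6 at 9.05 ± 0.0053 log2 (SD, n = 3 each), and the highest of the complex was NSMCE1 at 9.51 ± 0.03 (SD, n = 3). Against 10% of all genes, the 6 measured of the other proteins that act with cohesin or condensin on chromosomes were all in decile 10 by mean signal. They were the insulator protein CTCF at 9.86 ± 0.06, at which cohesin loops stop, the topoisomerases TOP2A at 11.23 ± 0.04 and TOP2B at 10.53 ± 0.06, the chromokinesin KIF4A at 9.89 ± 0.07, SMCHD1 at 10.43 ± 0.01 and MKI67 at 10.30 ± 0.15 log2 (SD, n = 3 each). MKI67, the Ki-67 protein that coats mitotic chromosomes, had the largest spread of these, with 10.13, 10.41 and 10.37 in cultures 1, 2 and 3. CTCF and KIF4A were near the lower edge of decile 10, 9.83 log2, and CTCF read 9.79, 9.91 and 9.88 in cultures 1, 2 and 3. MCPH1 and DDX11 were not analysed here. Over the lists of loaders, regulators, condensin II, SMC5/6 and partners, 30 of 30 measured genes were above the bound, against 56.9% of all genes. With the bound at the 99th percentile of the silent families (7.85), SGO2 (7.78) and EID3 (7.74) fall below it. Decile 10 held 6 of the 10 subunit genes, against 10 of these 30, and the median was 10.41 log2 for the subunit genes, against 9.08 for the 30.

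**Figure D4:**
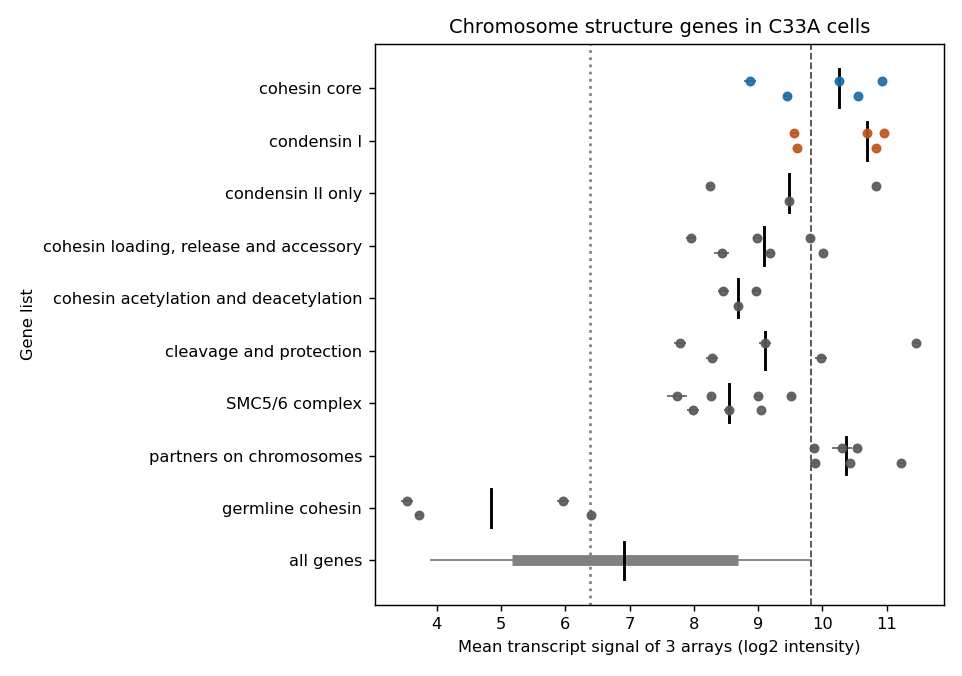
Mean transcript signal (x axis, log2 intensity, starting near 3) of cohesin and condensin genes and of related gene lists in C33A cells, where each point is 1 gene with its SD over 3 cultures, short vertical strokes are list medians, the bottom row gives the median (stroke), the 25th to 75th percentile (thick bar) and the 10th to 90th percentile (thin line) of all genes, and the dotted and dashed lines are the bound (6.38) and the lower edge of decile 10 (9.83). Of the germline cohesin genes, REC8 lies just above the bound and the others lie below it, and every other gene shown lies above it.

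Promoters bound by CHD8 were mapped in the same line by ChIP-chip, which gave a list of target genes. RAD21, STAG1, STAG2, SMC2, SMC4 and NCAPG are on that list, whereas SMC1A, SMC3, NCAPD2 and NCAPH are not. Membership of the list rests on ChIP-chip and not on these arrays. The list thus holds 6 of the 10 subunit genes, where 9.63% of all measured genes are on it. By decile, it holds 3 of the 6 subunit genes in decile 10, 2 of the 3 in decile 9 and the 1 in decile 8. Of all genes in these deciles, 30.1%, 20.0% and 15.4% are on it. The signals of genes on and off the list overlapped, with a range of 8.87 to 10.92 log2 and a median of 10.15 for genes on the list, against 9.56 to 10.96 and a median of 10.41 for genes off it. Of the E2F matches above, those of STAG1 and STAG2 belong to genes on the list and that of SMC1A does not. Absence from the list does not show absence of CHD8, since a listed gene needs enrichment in each of the ChIP-chip experiments. The ChIP-chip array covered a designed set of promoters and CpG islands. In the shares above, a measured gene outside that set would count as off the list, and such genes were not sought.

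The arrays agreed closely over all probe sets (Pearson's r from 0.993 to 0.994 between pairs of arrays). All 5 proliferation markers were above the bound, against 56.9% of all genes. CCNB1, the highest, was at 12.09 ± 0.02, PCNA at 10.56 ± 0.0034 and CDK1, the lowest and in decile 8, at 8.78 ± 0.06 log2 (SD, n = 3 each). Of the simple epithelial markers, 1 of 5, KRT18 (7.75 ± 0.11, SD, n = 3) passed the bound, and KRT8, KRT19, EPCAM and CDH1 were below it. None of 5 endothelial, 1 of 4 leukocyte (PTPRC, 8.82 ± 0.11) and 2 of 5 fibroblast markers (COL3A1, 11.36 ± 0.06, and COL1A1, 7.24 ± 0.14) were above it (SD, n = 3 each). All cultures were of 1 cell line, and any part of other cell types in the subunit signals was not tested.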

How the data were processed

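Total RNA of 3 C33A cultures was hybridized to 1 Affymetrix Human Gene ST array each. Scanned images were read with the Affymetrix console software, then background-corrected, normalized and summarized by Robust Multichip Average (RMA), with later steps in oneChannelGUI. For each array, the authors deposited 33297 log2 intensities, 1 for each probe set. RMA gives all arrays 1 distribution, so a shift common to all genes cannot be seen. For these tools no version is given in the sources used here. No detection call or raw intensity was used.

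Probe sets were named by the platform annotation and updated to RefSeq symbols through the gene ID. The 19460 probe sets with 1 symbol were kept, those with several (1754) were left out, and probe sets of a gene were averaged, which gave 18417 genes. Each of the 10 subunit genes had 1 probe set, and none was listed on a probe set with several genes. Level, SD over the 3 cultures, decile and bound of the silent families (95th percentile, families matched by the start of the symbol) were computed as described beside the results. The CHD8 target list was matched by accession, symbol or synonym and used for membership only. All samples form 1 group, so no test between groups was made. The subunit genes, the other gene lists and the motifs were chosen with earlier results of these data known. Genes named in the text are the 10 subunit genes and measured genes of the other lists and of the marker lists, and no genes of like pattern were sought. The alternatives left out each array, took the highest probe set, shifted the arrays to a common median, kept only genes with a protein-coding accession, changed the bound, or counted probe sets with several symbols. The functions for deciles, the bound and the SD were tested on simulated data. Computations used Python 3.11.15, NumPy 2.4.6, pandas 2.3.3 and matplotlib 3.10.9.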

Additional observations from a re-analysis of the deposited data

How the results depend on the processing

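Of the 10 subunit genes, 10 were above the bound and 6 were in decile 10 with each array left out in turn. The same held for the highest probe set of a gene, arrays shifted to a common median and protein-coding genes only. All 10 were also above a bound from the 99th percentile of the silent families (7.85 log2) or from olfactory receptor genes alone (5.44). A change of bound does not affect deciles. With probe sets of several symbols counted for each gene, 6 were in decile 10, and the count above the bound was not computed. Without 1 array, the median of the 10 genes was between 10.40 and 10.42 log2. The level of a single subunit gene could not be checked in this way: each has 1 probe set, the shift to a common median leaves a mean over 3 arrays as it is, and leaving out 1 of 3 arrays can move a mean only by less than its SD. The shift could for the same reason not move the counts. The count above the bound also held with a bound from protein-coding family members alone (6.41), which was chosen after seeing the data. No paired analysis was possible because all samples belong to 1 group. Arrays carry no read depth, and with 1 probe set a gene, the effect of probe sequence on its level was not tested.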
